A study of Mus musculus with 12 samples.

Results

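The comparison described here sets 5-hydroxymethylcytosine (5-hmC) after injury of the peripheral branch of sensory axons against 5-hmC after injury of their central branch, in mouse dorsal root ganglia. It takes all regions that the authors listed as differing between the lesions, which is 22944 of the 70430 rows in the 3 deposited tables. Regions on chromosome M, in pericentromeres, at Sfi1 and Rn45s and in a block of chromosome 2 that holds many of them were set aside. These were 155 regions, 105 of them in the chromosome 2 block, and 22789 regions were kept. One group had a lesion of the sciatic nerve (peripheral lesion, PL) and the other a lesion of the dorsal columns of the spinal cord (dorsal column lesion, DCL), and lumbar ganglia were taken 24 h later. Each group had 3 enriched libraries, each from the ganglia of 3 pooled animals, and differences between libraries are differences between pools. The third group of the study, contralateral ganglia of PL animals, enters only where it is named as control. The labels used here state no strain, age or sex. Whole ganglia hold neurons, satellite glia, Schwann cells, vessels and immune cells, so a count from ganglion DNA is a sum over these cells.

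5-hmC is made from 5-methylcytosine by the TET dioxygenases, and it is either an intermediate of active DNA demethylation or a lasting mark. It is abundant in neurons, where it lies mostly in gene bodies and at distal regulatory DNA and is scarce at CpG-rich promoters. A sensory neuron of the dorsal root ganglion sends one branch of its axon into the nerve and the other into the spinal cord. The nerve branch regrows after a cut and switches on growth genes in the cell body, whereas the spinal branch regrows poorly, and the pair of lesions sets injury with regrowth beside injury with little of it. In the assay, a sugar is put on 5-hmC, biotin is coupled to the sugar, and the DNA fragments are captured and sequenced. The value of a region is therefore the amount of captured DNA over a short stretch, not a share of modified cytosines.

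Among the kept regions, 5688 were higher and 17101 lower after PL than after DCL, so 75% were lower. Regions had a median length of 220 bp where higher and 240 bp where lower. All 3 PL libraries lay above all 3 DCL libraries in 5622 higher regions (98.8%). Among the lower regions, all 3 PL libraries lay below all 3 DCL libraries in 10081 (58.9%). The authors chose the regions for a difference between these same libraries, so these shares describe the list and test nothing. In the authors' deposited table, 99.3% of the higher and 98.3% of the lower regions had an adjusted p under 0.05, and 95.2% and 92.4% under 0.01. An exact two-sided permutation test of 3 libraries against 3 cannot give a p below 0.1, and no test was run on single regions.

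One DCL library stood apart from the others in the lower regions. In the count cells of the table the 3 values of a group carry no library name, and the library whose value stands first among the DCL values is called the first-listed DCL library here. Low values of a library were whole multiples of one step, the value of 1 read, which was 2.34 in the first-listed DCL library, 1.11 and 0.488 in the other DCL libraries, and 0.620, 1.03 and 1.23 in the PL libraries. Its reads were thus multiplied by the largest factor of the 6. It was the highest DCL library in 80.0% of the lower regions and in 28.3% of the higher regions. Over the lower regions its median value was 46.8, against 18.8 and 13.7 in the other DCL libraries and 8.68, 9.26 and 9.81 in the PL libraries. Over the higher regions the DCL libraries had medians of 4.68, 5.54 and 5.36 and the PL libraries of 15.5, 15.4 and 16.0, so there the DCL libraries lay together.

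**Figure D1:**
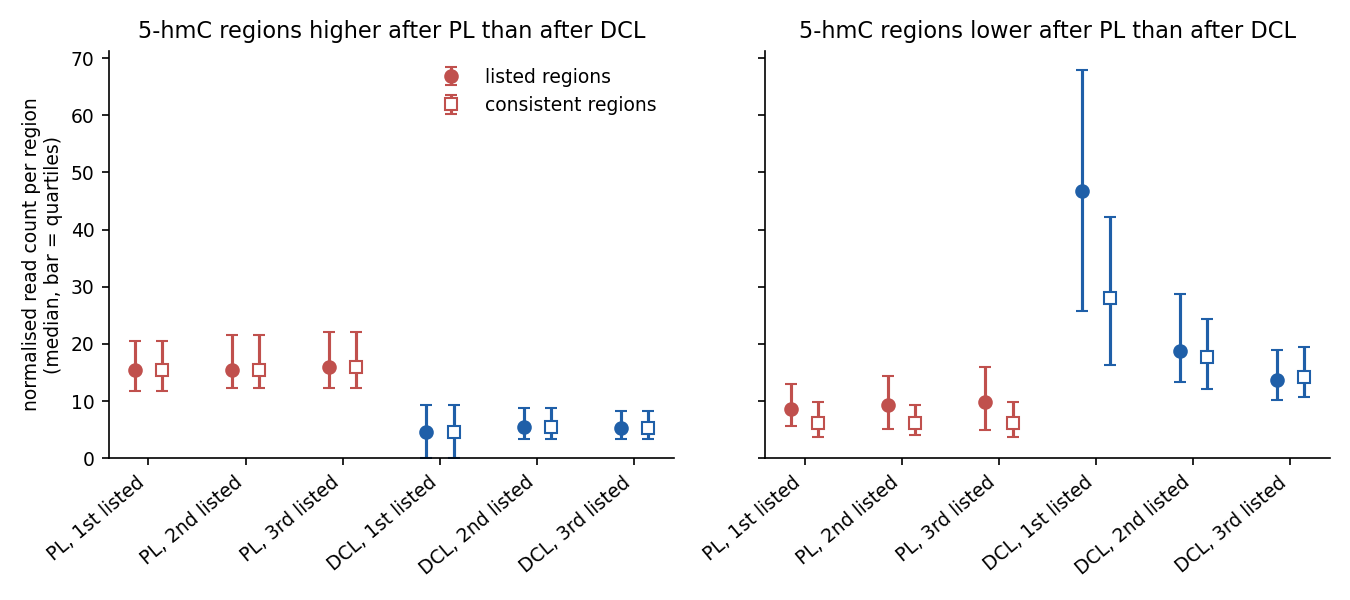
Median normalised read count (dots and squares) with quartiles (bars) in each of the 6 libraries, for regions higher (left) and lower (right) after PL than after DCL; filled symbols are all listed regions, open symbols the consistent regions. Over the listed lower regions the first-listed DCL library has a median of 46.8 and stands above the other DCL libraries at 18.8 and 13.7.

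Without that library all 5688 higher regions (100%) kept their direction and a difference of at least 1.5-fold, as did 12030 of the lower regions (70.3%), while 974 lower regions turned direction. The authors selected the regions with that library in the DCL group, so these counts also describe the list and test nothing. The median log2 ratio of PL to DCL moved from 1.69 to 1.60 in the higher regions and from -1.53 to -0.95 in the lower ones. A region is called consistent here if the 3 PL libraries all lay on the same side of the 3 DCL libraries and the 1.5-fold difference held without the first-listed DCL library. This left 5622 higher (98.8%) and 9492 lower regions (55.5%), of which 62.8% were lower. Genes are named below from consistent regions unless said otherwise. Whether the excess of lower regions would be seen with another DCL library in its place was not tested.

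**Figure D2:**
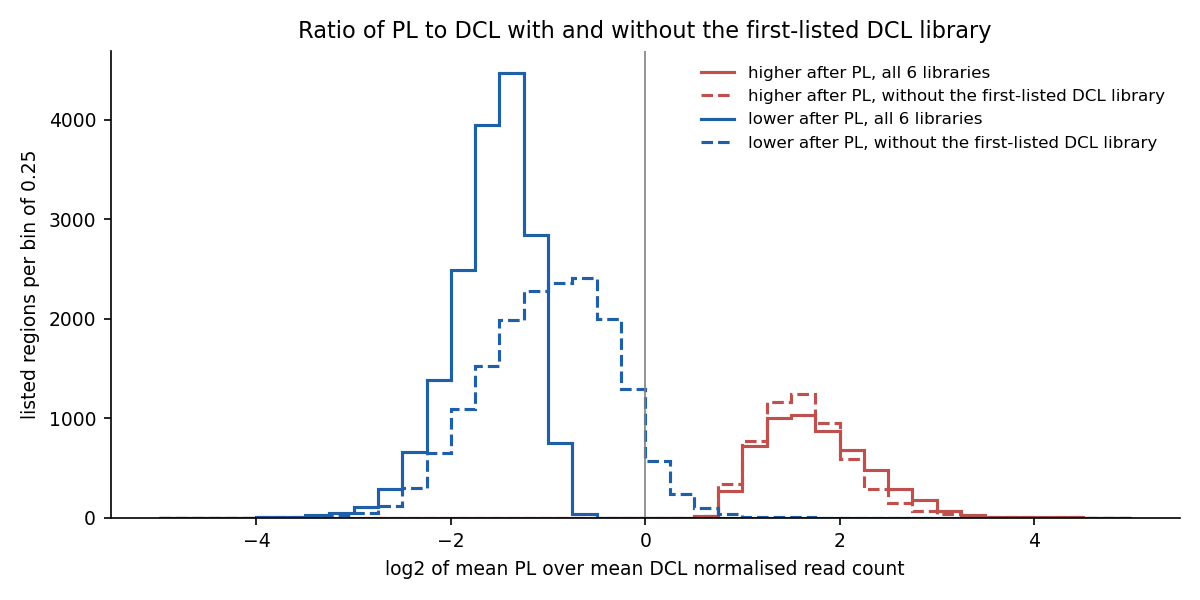
Number of listed regions by log2 ratio of mean PL to mean DCL normalised read count, with all 6 libraries (solid) and without the first-listed DCL library (dashed), for regions higher (red) and lower (blue) after PL. The higher regions keep a median log2 ratio of 1.60 without that library, and the lower regions move towards 0 from -1.53 to -0.95, with 974 beyond 0.

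Consistent regions met the window around the gene's start, from 250 bases before to 50 after it, in 22 genes where higher and in 46 where lower after PL. The reference windows of 4 such genes are printed because a consistent region overlaps each of them, 2 higher and 2 lower, and because a 5-hmC count at a start site can be read only against the CpG content there. These genes were chosen after their values were seen. Windows are RefSeq sequence on GRCm38.p6, written along the gene's strand in lower case with each CpG in capitals. The regions are on mm9, and their place relative to the start is the deposited distance.
Avil (chr10:127000459-127000758, plus strand): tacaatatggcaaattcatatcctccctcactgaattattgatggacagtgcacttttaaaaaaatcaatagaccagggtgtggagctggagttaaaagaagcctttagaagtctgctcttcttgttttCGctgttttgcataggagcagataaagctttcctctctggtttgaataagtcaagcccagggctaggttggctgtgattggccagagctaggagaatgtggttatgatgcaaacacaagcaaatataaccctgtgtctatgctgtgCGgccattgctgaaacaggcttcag
Zdhhc19 (chr16:32496031-32496330, plus strand): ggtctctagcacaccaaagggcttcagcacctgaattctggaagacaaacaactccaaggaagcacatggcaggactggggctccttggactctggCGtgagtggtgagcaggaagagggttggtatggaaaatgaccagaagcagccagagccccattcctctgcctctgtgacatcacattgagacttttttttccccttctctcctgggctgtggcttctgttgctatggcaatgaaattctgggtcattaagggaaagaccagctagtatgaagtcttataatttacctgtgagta
Ankrd1 (chr19:36119795-36120094, minus strand): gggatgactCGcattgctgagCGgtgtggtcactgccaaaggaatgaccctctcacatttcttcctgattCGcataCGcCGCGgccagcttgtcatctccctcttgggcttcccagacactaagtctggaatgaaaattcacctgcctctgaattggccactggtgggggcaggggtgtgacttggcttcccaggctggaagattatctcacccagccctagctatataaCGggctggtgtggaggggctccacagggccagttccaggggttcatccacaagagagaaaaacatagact
Pde4d (chr13:108653927-108654226, plus strand): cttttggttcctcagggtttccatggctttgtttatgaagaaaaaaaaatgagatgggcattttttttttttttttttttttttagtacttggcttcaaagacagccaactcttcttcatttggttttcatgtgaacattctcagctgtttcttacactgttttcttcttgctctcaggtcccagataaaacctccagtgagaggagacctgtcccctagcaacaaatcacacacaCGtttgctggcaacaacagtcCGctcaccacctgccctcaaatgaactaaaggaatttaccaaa

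Avil encodes advillin, an actin-binding protein of sensory neurons. Its region (chr10:126437441-126437640, mm9) is centred at -225 bp from the start and had 18.0, 14.4 and 24.5 normalised reads in the PL libraries against 4.68, 5.54 and 6.34 in the DCL libraries (18.97 ± 5.14 against 5.52 ± 0.830, mean ± SD, n = 3 each). The groups did not overlap, and the log2 ratio was 1.78. The gene spans 20286 bp in the deposited table and 20930 bp in RefSeq, so its start may differ between the annotations. The other higher region lies at Zdhhc19, a member of the family of palmitoyl transferases, with 11.8, 19.5 and 11.0 after PL and 7.02, 3.32 and 3.90 after DCL. Both windows are poor in CpG, with 2 and 1, and 23.3% and 14.1% of all 32851 windows have as few.

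Ankrd1, an ankyrin repeat protein of muscle that is induced in sensory neurons by nerve injury, had its region at the start (chr19:36194221-36194460) lower after PL. The PL libraries had 4.96, 8.23 and 7.36 normalised reads and the DCL libraries 37.5, 13.3 and 11.2, with a log2 ratio of -1.59 that became -0.84 without the first-listed DCL library. At one start of Pde4d, which encodes a cyclic AMP phosphodiesterase, PL gave 2.48, 0 and 2.45 and DCL 9.36, 9.97 and 9.27. The PL group there rests on few reads. The windows hold 7 and 2 CpG. Over all windows the median was 7 CpG with quartiles of 3 and 20, and 94.6% hold at least 1. Among genes with a single window in the table, the windows that a consistent region met had a median of 4.5 CpG where higher (10 windows) and 6.5 where lower (20 windows). Only 5% of the latter and none of the former had 20 or more, against 26.5% of all windows. All windows include those of genes with several, so the sets compared are not alike.

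MicroRNA genes, whose transcripts repress messenger RNAs that match their seed, had 17 consistent regions higher and 30 lower after PL, at 47 genes. The split was similar over all consistent regions, with 5622 higher and 9492 lower. In the promoter class lay 44 of the 47, but this class reaches 3000 bp to either side of a start. A region at so short a gene therefore mostly falls in it. The log2 ratios had a median of 1.75 (1.00 to 3.13) in the higher regions and -1.76 (-2.80 to -0.87) in the lower. RefSeq mature sequences matched 44 of the genes. The regions lie at the gene and say nothing of an arm of the hairpin; the 5p arm of 7 genes is shown because the seed is what a target would match, with bases 2 to 8 in capitals. They were chosen after their values were seen, and their seeds are all distinct.
miR-194-5p: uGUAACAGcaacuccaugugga
miR-181b-5p: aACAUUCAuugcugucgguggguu
miR-324-5p: cGCAUCCCcuagggcauuggugu
miR-1306-5p: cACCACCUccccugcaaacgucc
miR-106b-5p: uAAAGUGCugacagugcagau
miR-365-2-5p: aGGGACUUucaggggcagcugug
miR-370-5p: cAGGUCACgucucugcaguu

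The genes of the first 4 had a higher region after PL. Mir194-1 had 18.0, 17.5 and 23.3 normalised reads after PL against 2.34, 3.32 and 8.78 after DCL, at -278 bp from its start. Mir181b-1 had 11.2, 21.6 and 27.0 against 7.02, 4.43 and 6.83. Mir324 had 14.9, 17.5 and 39.2 against 9.36, 3.32 and 8.29. The groups lay apart in each. Mir1306 had 20.4, 15.4 and 17.2 against 4.68, 4.43 and 8.29, 90 bp past its start. The genes of the last 3 had a lower region. Mir106b had 10.5, 7.20 and 11.0 against 74.9, 21.1 and 11.7, and its log2 ratio of -1.90 became -0.77 without the first-listed DCL library. Mir365-2 had 1.24, 4.11 and 3.68 against 9.36, 8.86 and 11.2. Mir370, of an imprinted cluster, had 9.30, 13.4 and 7.36 against 21.1, 17.7 and 27.8, with a ratio of -1.15, and -1.19 without that library. The tables hold no RNA, so the levels of these microRNAs are not known from them.

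Higher regions in genes, in order of adjusted p in the authors' deposited table, were led by Dpysl5, which encodes CRMP5, a member of the collapsin response mediator family that acts on microtubules in growth cones. Its first region (chr5:31065681-31066080, gene body) had 37.2, 39.1 and 31.9 normalised reads in the PL libraries and 4.68, 9.97 and 15.1 in the DCL libraries. The lowest PL library was more than 2 times the highest DCL library, and the means were 36.0 ± 3.73 and 9.92 ± 5.22 (SD, n = 3), a log2 ratio of 1.86. A second region of the gene, chr5:31074801-31075000, had 16.7, 14.4 and 18.4 against 2.34, 7.75 and 6.34. The adjusted p of the first was 5.56e-05 in the authors' deposited table.

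The other genes named by this order are given here by what they do, not by rank. At chr2:44042321-44042660 in Arhgap15, which switches off the GTPase Rac, there were 17.4, 16.4 and 20.9 normalised reads after PL against 4.68, 2.22 and 3.90 after DCL (18.2 ± 2.32 against 3.60 ± 1.26). Agap1, a GTPase-activating protein for Arf, had 31.0, 41.1 and 30.7 against 7.02, 13.3 and 10.2. Plekha7, a protein of adherens junctions, had 32.2, 37.0 and 30.7 against 7.02, 12.2 and 13.2. In all of these the groups lay apart and the lowest PL library was above 2 times the highest DCL library. Negr1, an adhesion molecule of the IgLON family on neurites, had 18.6, 11.3 and 17.2 against 7.02, 3.32 and 0.980. Pard3b, related to a cell polarity protein, had 11.8, 12.3 and 12.3 against 0, 0 and 1.95, so 2 DCL libraries had no read there. Lmbr1, whose intron holds a limb enhancer of Shh, had 28.5, 30.9 and 23.3 against 14.1, 8.86 and 7.31.

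Several of these genes had little signal after DCL. Ift43, part of the transport complex of cilia, had 14.2, 12.3 and 13.5 against 4.68, 2.22 and 0. Srbd1, with an RNA-binding domain, had 12.4, 12.3 and 14.7 against 0, 0 and 2.44. Park2, the ubiquitin ligase parkin, had 10.5, 10.3 and 9.81 against 0, 0 and 1.95. In these genes the DCL group rests on 4 or 5 reads in all, and the size of the ratio is loosely set. Apaf1, the core of the apoptosome, and Pcbp3, an RNA-binding protein, had 43 and 32 reads in the PL libraries together and 3 reads each in the DCL libraries, so no fold is given. Intergenic regions showed the same at the end of the range, where chr13:96042181-96042400 had 10.5, 9.26 and 11.0 after PL and no read in any DCL library.

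**Figure D3:**
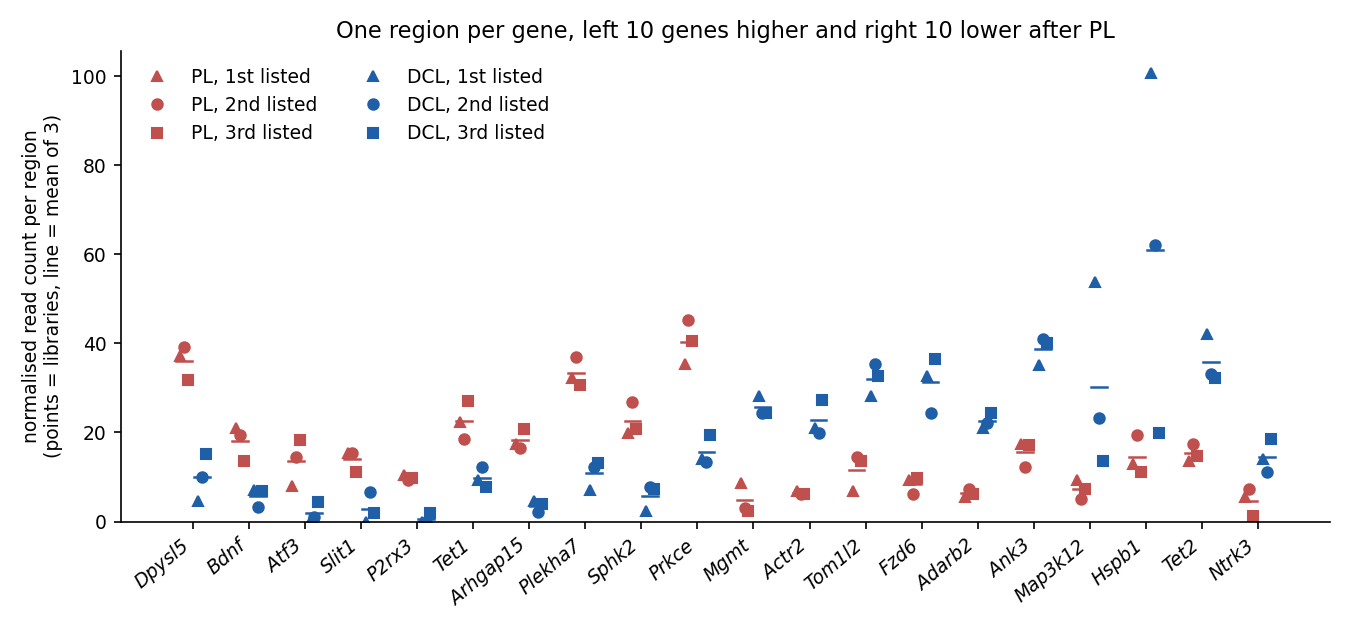
Normalised read count of one consistent region in each of 20 named genes, with a point for each library, a line for the mean of 3 libraries, PL in red and DCL in blue. The left 10 genes are higher after PL; among the right 10, which are lower, the first-listed DCL library is the highest in Map3k12 and Hspb1, at 53.9 and 101, and not in Adarb2 or Actr2.

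Lower regions with the smallest adjusted p were taken from consistent regions only. By that rule each keeps a 1.5-fold difference without the first-listed DCL library, so the order does not show how often that library carried a region. Mgmt, which removes alkyl groups from guanine in DNA, had 8.68, 3.09 and 2.45 normalised reads after PL and 28.1, 24.4 and 24.4 after DCL at chr7:144180621-144181040 (4.74 ± 3.43 against 25.6 ± 2.14). Its log2 ratio was -2.43, and -2.36 without that library. The adjusted p was 1.75e-05 in the authors' deposited table. The 3 DCL libraries lay within 4 normalised reads of each other and far above the PL libraries.

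The other lower genes named by this order are likewise given by what they do. Tom1l2, an endosomal sorting adaptor, had 6.82, 14.4 and 13.5 against 28.1, 35.5 and 32.7. Tnpo1, the nuclear import receptor transportin, had 26.6, 27.8 and 19.6 against 58.5, 53.2 and 59.0. Rab18, a GTPase of lipid droplets and the endoplasmic reticulum, had 6.20, 4.11 and 2.45 against 18.7, 24.4 and 18.5. Each of them had all DCL libraries close together. For the actin cytoskeleton, Actr2, a subunit of the complex that starts branched filaments, had 6.82, 6.17 and 6.13 against 21.1, 19.9 and 27.3 (log2 ratio -1.84). Ank3, which encodes ankyrin-G, the scaffold of the axon initial segment and nodes, had 17.4, 12.3 and 17.2 against 35.1, 41.0 and 39.99 in a region of 480 bp. These 5 regions had between 68 and 194 reads over the 3 DCL libraries.

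Among receptors and enzymes, Fzd6, a frizzled receptor for Wnt proteins, had 9.30, 6.17 and 9.81 after PL against 32.8, 24.4 and 36.6 after DCL. Adarb2, a brain protein of the RNA editing family, had 5.58, 7.20 and 6.13 against 21.1, 22.2 and 24.4. Metap2, a methionine aminopeptidase, had 2.48, 1.03 and 0 against 39.8, 17.7 and 8.78, where the first-listed DCL library was the highest. The other genes named by this order had almost no read after PL: Slc39a11, a zinc transporter, 3 reads, Chrm3, a muscarinic receptor, 3 reads, and Fbxo16, an F-box protein, 1 read over the 3 libraries. Their DCL groups had 48, 32 and 31 reads, and no fold is given. The intergenic region chr5:82543821-82544040 had no read in any PL library and 9.36, 12.2 and 8.78 in the DCL libraries.

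In promoters, which the authors' annotation takes as up to 3000 bp from the start, higher regions lay at genes of several basic functions. Sphk2, a sphingosine kinase, had 19.8, 26.7 and 20.9 normalised reads after PL against 2.34, 7.75 and 7.31 after DCL, at -603 bp from the start. Pccb, a subunit of propionyl-CoA carboxylase, had 19.8, 15.4 and 19.6 against 0, 6.65 and 4.88. Htra2, a mitochondrial serine protease, had 16.1, 16.4 and 19.6 against 2.34, 2.22 and 5.36. These 3 promoters had a higher value in each PL library than in any DCL library by more than 2-fold. Taf5, a subunit of the general transcription factor TFIID, had 10.5, 12.3 and 11.0 against 0, 1.11 and 1.95. Adam1b, Olfr156 and Lyzl4os, which are known from sperm, smell or as an antisense transcript, were also among them with log2 ratios of 1.43, 1.78 and 1.46, the second of which became 2.66 without the first-listed DCL library. Defb28, a defensin, had only 2 reads after DCL.

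Leaving out the first-listed DCL library brought the log2 ratio of each of the 8 lower promoter regions named by the same order nearer to 0. Hspbp1, which binds the chaperone Hsp70 and releases its nucleotide, had 0.620, 3.09 and 2.45 after PL against 32.8, 19.9 and 11.2 after DCL (log2 ratio -3.38, -2.92 without that library). Fam69b, of a family of kinases in the secretory pathway, had 4.34, 0 and 1.23 against 25.8, 23.3 and 12.7. In both, the second-listed DCL library was also far above the PL libraries. Tbcel, a tubulin-binding protein, had 3.10, 1.03 and 2.45 against 51.5, 8.86 and 8.29, and its log2 ratio of -3.38 became -1.97. Mill2, related to class I histocompatibility proteins, had a pair of such regions with log2 ratios of -3.57 and -3.27, the first of which became -2.29. Ggta1, Cfap97 and Mir3970 had ratios of -2.71, -2.80 and -2.65, which became -1.66, -1.97 and -1.04 without it. PL reads in these lower promoters were between 5 and 15 over the 3 libraries.

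Growth genes of injured sensory neurons were looked at whatever their values. Jun, Sox11, Gap43, Sprr1a, Dpysl4 and Plxna2 had no listed region at all. Atf3, the injury-induced transcription factor, had a single region, in its gene body (chr1:193001161-193001380), with 8.06, 14.4 and 18.4 normalised reads after PL against 0, 1.11 and 4.39 after DCL (log2 ratio 2.89). Bdnf, a neurotrophin, had a single region 692 bp from a start (chr2:109563641-109563900), with 21.1, 19.5 and 13.5 against 7.02, 3.32 and 6.83. In both genes every PL library lay above every DCL library. Over the list of 42 regeneration-associated genes, 7 had a consistent higher region and 10 a consistent lower one, 3 of them both, and 28 had none. Over all 21900 protein-coding genes the shares were 11.6% with a higher, 17.6% with a lower and 5.42% with both, or 23.8% with either. On the list they were 16.7% with a higher and 23.8% with a lower region.

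Other transcription factors of regrowth had regions in both directions. Klf7, which promotes axon growth, was higher at -2497 bp from its start (23.6, 27.8 and 19.6 against 4.68, 13.3 and 11.2) and lower in a pair of gene body regions with log2 ratios of -1.95 and -1.81. Stat3, which carries cytokine signals to the nucleus, was higher at one gene body region (19.2, 28.8 and 25.8 against 14.1, 9.97 and 8.78). At its next listed region, chr11:100773661-100773900, it was lower, with 12.4, 21.6 and 12.3 against 25.8, 35.5 and 33.2. Adjacent regions of Stat3 thus went opposite ways with all libraries apart. Klf4, a repressor of axon growth, was higher with 23.6, 28.8 and 30.7 against 7.02, 9.97 and 15.1. Smad1, the transducer of BMP signals, was lower in a pair of regions with log2 ratios of -1.21 and -1.17, which became -0.65 and -0.67 without the first-listed DCL library. Hspb1, a small heat shock protein of injured neurons, was lower in its promoter with 13.0, 19.5 and 11.0 against 101, 62.0 and 19.99, and Basp1, a growth cone protein, was lower with 3.72, 4.11 and 4.91 against 30.4, 9.97 and 10.7.

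In some genes the first-listed DCL library lay far above the others. Creb1, the cyclic AMP response factor, had 4 lower regions and no consistent one. At chr1:64591801-64592000 the values were 8.68, 4.11 and 3.68 against 84.3, 16.6 and 8.29. All 4 kept the 1.5-fold difference without the first-listed DCL library, with a log2 ratio of -1.18 at this region, and were not consistent because the last-listed DCL library overlapped the PL libraries. Dpysl3, the CRMP4 gene, had 14.2, 21.6 and 13.5 against 150, 16.6 and 14.6, and its log2 ratio of -1.88 turned to 0.07 without the first-listed DCL library. Nrp1, a semaphorin receptor, likewise had 1 listed region, which was not consistent.

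Of 25 genes for TET and DNA methylation enzymes, 3 had a consistent higher region (12%) and 6 a lower one (24%), against 11.6% and 17.6% of all protein-coding genes. Over all listed regions, 12 of them had a lower one (48%), against 26.1% of all protein-coding genes. Tet1 was higher at chr10:62304101-62304340, with 22.3, 18.5 and 27.0 normalised reads against 9.36, 12.2 and 7.80 (log2 ratio 1.21). Tet2 was lower at chr3:133194381-133194660, with 13.6, 17.5 and 14.7 against 42.1, 33.2 and 32.2. Both had all libraries apart. Tet3, the TET enzyme that injury induces in these neurons, had 20.4, 14.4 and 18.4 against 4.68, 2.22 and 8.78 at a higher region. A second consistent region of Tet3 was lower, with 11.8, 15.4 and 14.7 against 28.1, 22.2 and 30.7. Another listed region, chr6:83332641-83332980, had 21.7, 20.6 and 33.1 against 155, 17.7 and 19.99, and its ratio of -1.35 turned to 0.41 without the first-listed DCL library. Dnmt3a, a de novo methyltransferase, Mbd4, a glycosylase, and Idh2, which supplies the TET cofactor, were lower with log2 ratios of -1.82, -1.95 and -1.86, which became -0.92, -1.98 and -0.90 without the first-listed DCL library. Over the histone enzymes, 16 of 42 had a higher and 21 a lower region, among them Hdac1 higher with 11.8, 11.3 and 13.5 against 7.02, 3.32 and 1.95. Hdac1 also had 3 listed lower regions that were not consistent.

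Guidance cues had regions in both directions. Slit1, a repellent ligand, had a single region, with 15.5, 15.4 and 11.0 normalised reads after PL and 0, 6.65 and 1.95 after DCL. Its receptor Robo1 was higher at 2 regions, with 30.4, 31.9 and 24.5 against 14.1, 16.6 and 12.7 nearest the start, and lower at 1, with 4.34, 3.09 and 3.68 against 25.8, 14.4 and 8.29. Slit3 had 5 lower regions and no higher one. Of the 24 Slit, Robo and netrin genes, 8 had a higher region (33.3%) and 12 a lower one (50%). Among all protein-coding genes the shares were 11.6% and 17.6%. Sema6d, a transmembrane semaphorin, was higher at chr2:124263401-124263660 (21.1, 21.6 and 15.9 against 9.36, 2.22 and 5.85) and lower at 2 consistent regions. Sema3a, the repellent ligand of neuropilin, had 3.72, 4.11 and 1.23 against 9.36, 13.3 and 10.7. Nrp2 and Plxnc1, receptors of semaphorins, had only lower regions, and Plxnb1 a higher one with 16.7, 10.3 and 14.7 against 7.02, 2.22 and 5.36. Over the 31 semaphorin, plexin and neuropilin genes the counts were 8 and 10 (25.8% and 32.3%).

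Among Eph receptors, Ephb2 had 7 consistent regions, all lower after PL. The one with the smallest adjusted p (chr4:136374481-136374700) had 6.20, 4.11 and 6.13 against 51.5, 14.4 and 10.7. The one with the most signal had 34.1, 41.1 and 30.7 against 77.3, 64.2 and 54.6, with a log2 ratio of -0.89. The 7 log2 ratios ran from -2.22 to -0.89, and without the first-listed DCL library from -1.88 to -0.75. Ephb1, the related receptor, had 2 higher and 4 lower regions. Of 22 Eph receptors and ephrins, 3 had a higher region (13.6%) and 7 a lower one (31.8%). The shares over all protein-coding genes were 11.6% and 17.6%.

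Ntrk2, the receptor TrkB for BDNF, had 11 listed regions, and 10 were consistent, 5 in each direction. They are ordered along the gene. Counted from the start, the first 4 regions, 41242 to 78882 bp in, were higher after PL, and 5 of the 6 further ones were lower. At 41242 bp the PL libraries had 11.8, 9.26 and 17.2 normalised reads and the DCL libraries 0, 1.11 and 2.93. At 78882 bp they had 18.6, 20.6 and 14.7 against 4.68, 6.65 and 5.85. In both, the lowest PL library lay more than 2 times above the highest DCL library. The lower regions began at 104222 bp, with 14.9, 13.4 and 15.9 against 117, 29.9 and 21.5, where the log2 ratio of -1.93 became -0.80 without the first-listed DCL library. The last, at 322782 bp, had 8.06, 7.20 and 7.36 against 18.7, 22.2 and 16.6. The exception at 173762 bp was higher, with 18.6, 21.6 and 15.9 against 9.36, 7.75 and 7.80. This order was noticed after the values were seen. Ntrk3, the receptor of neurotrophin-3, had 1 lower region with 5.58, 7.20 and 1.23 against 14.1, 11.1 and 18.5. Ret, the signalling receptor for GDNF ligands, was higher in its promoter with 19.8, 14.4 and 17.2 against 0, 8.86 and 3.41. Ret also had 1 lower region. Sort1, the sorting receptor sortilin, was higher at 2 regions with log2 ratios of 1.95 and 2.27. Of the 26 neurotrophin and GDNF genes, 8 had a higher (30.8%) and 7 a lower region (26.9%). Among all protein-coding genes 11.6% and 17.6% had one.

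In the DLK and JNK list, 11 of 23 genes had a lower region (47.8%) and 3 a higher one (13.0%). Among all protein-coding genes 17.6% had a lower and 11.6% a higher one. Map3k12, the injury sensor DLK, had 9.30, 5.14 and 7.36 normalised reads after PL and 53.9, 23.3 and 13.7 after DCL, where its log2 ratio of -2.06 became -1.34 without the first-listed DCL library. Mapk10, the neuronal JNK, was lower at 2 regions, with 5.58, 3.09 and 1.23 against 9.36, 14.4 and 12.7 and 4.34, 4.11 and 0 against 14.1, 16.6 and 11.7. Nmnat2, an enzyme of NAD synthesis that keeps axons alive, was lower at 3 regions, all with ratios from -1.51 to -1.18. Its most distant one had 11.2, 13.4 and 12.3 against 28.1, 32.1 and 23.4. Mycbp2, the ubiquitin ligase PHR1 that degrades NMNAT2 and DLK, was lower at 4 regions. Map3k1 had a higher region, with 14.9, 16.4 and 9.81 against 0, 3.32 and 2.93, beside 3 lower ones.

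In the PI3K and mTOR list 14 of 31 genes had a lower (45.2%) and 7 a higher region (22.6%). Among all protein-coding genes the shares were 17.6% and 11.6%. Akt1 was higher, with 13.6, 13.4 and 13.5 against 0, 6.65 and 3.41, and Akt2 lower, with 6.20, 2.06 and 0 against 28.1, 11.1 and 8.78. Mtor itself was lower at 2 regions, and Deptor, an inhibitor of mTOR, at 5 with no higher one. At one of these, chr15:54950581-54950820, the values were 6.20, 3.09 and 2.45 against 9.36, 19.9 and 13.2. Rptor, the mTOR partner raptor, was higher at 2 regions and lower at 1. Igf1r, the receptor of IGF1, had 8 higher and 5 lower regions; its promoter region had 18.6, 14.4 and 25.8 against 7.02, 3.32 and 4.88, and a gene body region had 35.3, 35.0 and 24.5 against 72.6, 57.6 and 65.3. In the BMP and TGF-beta list 21 of 33 genes had a lower region (63.6%), the highest share of the 25 lists, and 12 a higher one (36.4%). Its genes had a median length of 70.7 kb, against 17.1 kb over all protein-coding genes, and longer genes more often had regions. The receptor Bmpr1a was lower at 2 regions with log2 ratios of -1.59 and -1.90, which became -0.89 and -1.13 without the first-listed DCL library, and Tgfb2, a ligand, was higher in its promoter with 9.30, 10.3 and 12.3 against 2.34, 3.32 and 1.95. Smad3, a transducer of TGF-beta, had both, and its higher region had 11.8, 13.4 and 17.2 against 2.34, 2.22 and 4.39.

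Cytokine and Wnt genes were listed in both directions too. Of 31 cytokine and JAK-STAT genes, 6 had a higher region (19.4%) and 10 a lower one (32.3%). The shares over all protein-coding genes were 11.6% and 17.6%. Clcf1, a ligand of the CNTF receptor, was higher 2381 bp past its start, with 11.2, 19.5 and 15.9 against 0, 1.11 and 4.88. Il6st, the shared receptor chain gp130, had a lower region with 13.6, 14.4 and 11.0 against 65.5, 32.1 and 24.4. Il6st also had 1 higher region. Of 41 Wnt genes, 11 had a higher (26.8%) and 18 a lower region (43.9%). Ctnnb1, beta-catenin, was higher at 2 regions with 27.9, 16.4 and 22.1 against 4.68, 9.97 and 5.85 and 19.8, 15.4 and 15.9 against 7.02, 5.54 and 6.34. Gsk3b, the kinase that marks beta-catenin for decay, was lower with 5.58, 1.03 and 1.23 against 28.1, 11.1 and 11.2. Axin2, a target and inhibitor of the pathway, was higher with 28.5, 21.6 and 22.1 against 14.1, 6.65 and 8.78.

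Of 58 channel genes 30 had no consistent region, and of 39 glutamate and GABA receptor genes 23 had none. Among all protein-coding genes 23.8% had one in either direction. Kcnq5, a potassium channel of the M current, had 6 consistent regions, all lower after PL, with log2 ratios from -2.27 to -0.91. The lowest, at chr1:21917821-21918080, became -1.31 without the first-listed DCL library. Its flattest set of DCL values was at chr1:21940401-21940600, with 2.48, 0 and 3.68 against 9.36, 8.86 and 9.27. Scn3a, a sodium channel, was higher 1819 bp past a start (15.5, 12.3 and 17.2 against 4.68, 2.22 and 5.36). Kcnd2, a potassium channel, had a higher region (13.0, 17.5 and 14.7 against 4.68, 0 and 3.90) and also 1 lower region. On the channel list 16 genes had a higher (27.6%) and 21 a lower region (36.2%). On the glutamate and GABA receptor list the counts were 11 and 9 (28.2% and 23.1%). Among them, Grm4, a metabotropic receptor, was higher at 2 regions with ratios of 2.46 and 2.16. Grin2a, an NMDA receptor subunit, was higher with 9.30, 10.3 and 17.2 against 0, 4.43 and 1.95, and Gria3, an AMPA receptor subunit, lower with 3.72, 2.06 and 0 against 9.36, 9.97 and 9.27. In the calcium and cyclic AMP list 19 of 51 had a higher (37.3%) and 28 a lower region (54.9%). The shares over all protein-coding genes were 11.6% and 17.6%. The channel, glutamate and GABA, and calcium lists had median gene lengths of 159, 224 and 115 kb, against 17.1 kb over all protein-coding genes. Prkce, a protein kinase C, had 5 regions in each direction, and a higher one had 35.3, 45.2 and 40.5 against 14.1, 13.3 and 19.5.

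Of 35 growth cone and microtubule genes, 11 had a higher (31.4%) and 18 a lower region (51.4%), 10 of them both. The shares over all protein-coding genes were 11.6% and 17.6%. Map2 and Mapt, microtubule-binding proteins of dendrites and axons, had only lower regions, such as 3.10, 3.09 and 1.23 against 16.4, 8.86 and 12.2 and 1.86, 6.17 and 4.91 against 14.1, 14.4 and 11.2. Dpysl2, the CRMP2 gene, was lower at 2 regions, with ratios of -1.29 and -1.18, while Dpysl5 was higher at 2. The CRMP genes therefore went different ways. Of 30 motors, Kif5c, a neuronal kinesin, had 2 higher regions and no lower one, and Klc1, a kinesin light chain, a lower one with 5.58, 1.03 and 9.81 against 46.8, 22.2 and 11.2. Myo10, the myosin of filopodia, had 5 higher regions and no lower one. Of 44 adhesion genes 21 had a higher and 22 a lower region (47.7% and 50%). Cdh4, a cadherin, had 4 higher regions, led by 32.8, 38.0 and 35.6 against 21.1, 23.3 and 11.7, and Cadm1, an adhesion molecule of synapses and nerves, had 5 lower ones. Of 45 integrin and matrix genes, 17 had a higher and 27 a lower region (37.8% and 60%), and Itgb8 was higher with 13.6, 10.3 and 11.0 against 2.34, 2.22 and 3.90.

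**Figure D4:**
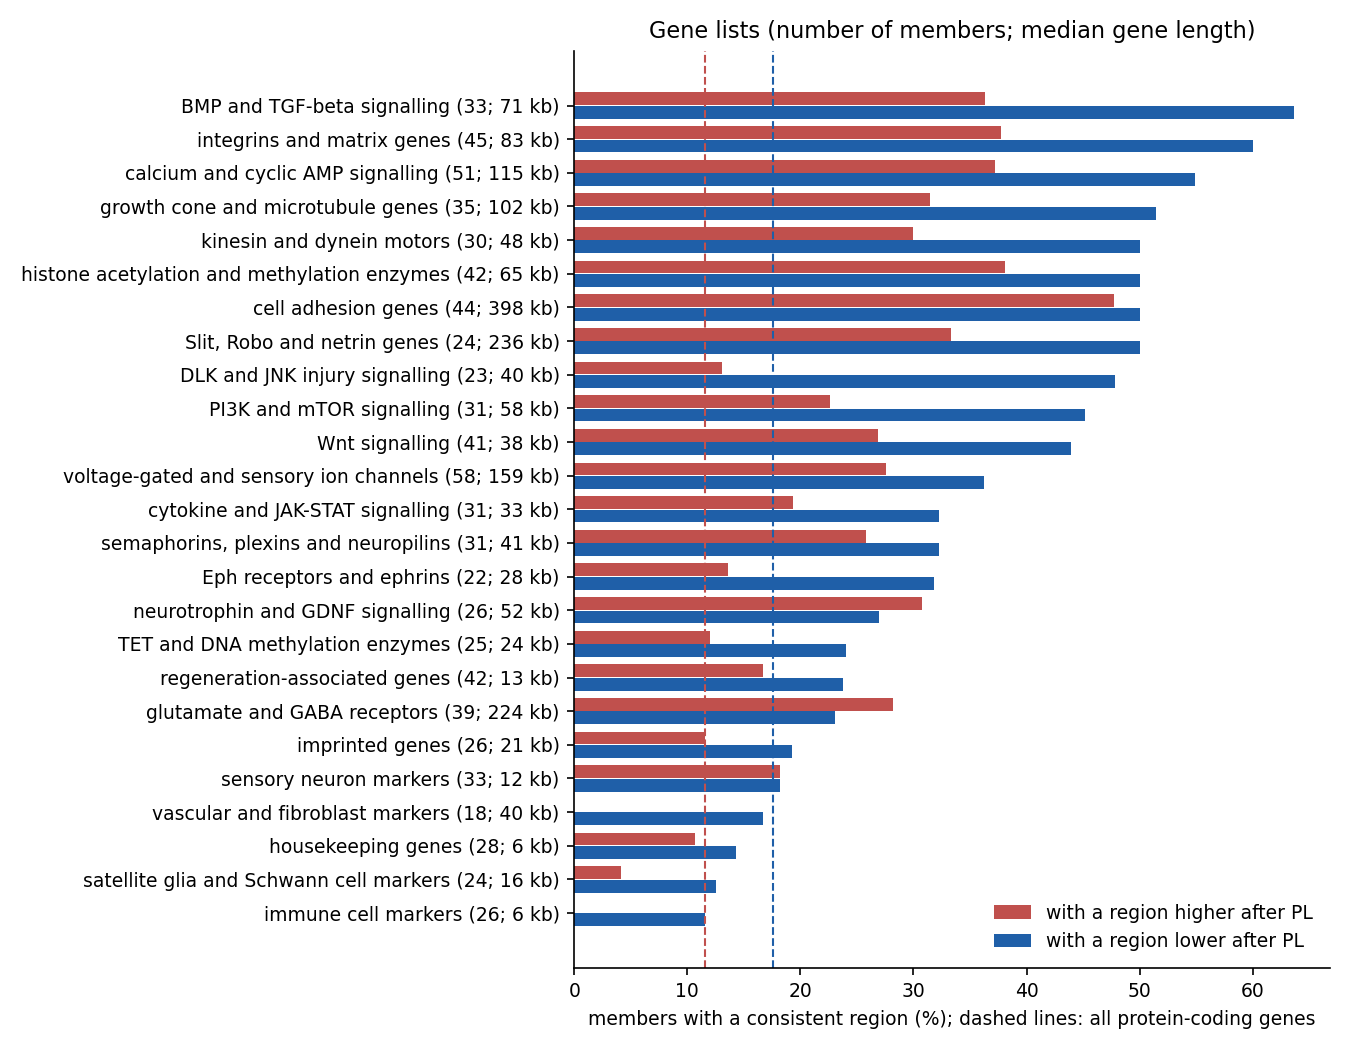
Share of the members of each of 25 gene lists with a consistent region higher (red) or lower (blue) after PL, with the number of members and their median gene length in brackets; dashed lines give the shares over all protein-coding genes, 11.6% and 17.6%. The cell adhesion list, with the longest genes, lies to the right of both lines, and the marker lists of immune and vascular cells have no member with a higher region.

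Gene length moved with these shares. Of protein-coding genes up to 10 kb, 1.79% had a consistent higher and 3.56% a consistent lower region; of those over 100 kb and up to 300 kb, 39.1% and 53.3%; and of those over 300 kb, 54.9% and 62.5%. The median member was 398 kb long in the adhesion list, 236 kb in the Slit list and 224 kb in the glutamate and GABA list, against 17.1 kb over all protein-coding genes. Among lists with short members, housekeeping genes (median 5.76 kb) had 3 higher and 4 lower of 28. Regeneration-associated genes (12.7 kb) and sensory neuron markers (12.2 kb) were also shorter than the median gene. Their shares were 16.7% and 23.8%, and 18.2% and 18.2%, against 11.6% and 17.6% of all protein-coding genes. Members over 100 kb made up 7.14% and 15.2% of these lists, against 11.1% of all protein-coding genes. In the DLK and JNK list, with a median of 39.7 kb, and the BMP and TGF-beta list, with 70.7 kb, 47.8% and 63.6% had a lower region. Members over 100 kb made up 26.1% and 27.3% of these lists. A lower region was in 28.9% of all genes from 30 to 100 kb, and in 53.3% of those up to 300 kb beyond that. The part of length in the list shares was not tested.

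Most genes with many regions had both directions. Wwox, a long gene at a fragile site, had 20 consistent regions, 7 higher and 13 lower. One had 14.9, 18.5 and 20.9 normalised reads after PL against 0, 6.65 and 2.93 after DCL and another 6.20, 4.11 and 7.36 against 42.1, 13.3 and 13.7. Auts2 followed with 7 higher and 12 lower regions, and Rbms3, Msi2, Pde4d, Tenm4 and Dst with 13 to 16 regions each. Agap1 had 10 higher and 4 lower. Of 934 genes with at least 3 consistent regions, 738 had both directions, 27 only higher and 169 only lower regions. Over all consistent regions 62.8% were lower, and whether the mix within genes departs from that split was not tested. Arhgap15 had the most of the first kind, with 6 higher regions, and Ephb2 and Rere, a transcriptional corepressor, the most of the second, with 7 lower regions each. Genes with 1 consistent region had a median length of 32.4 kb in the table and those with 3 or more 152634 bp.

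Over all listed regions 7.65% of the higher and 9.98% of the lower were in promoters, and the share was larger for the higher regions on 1 of 20 chromosomes. Gene bodies held 56.5% and 56.9%, and intergenic DNA 35.8% and 33.1%. Among consistent regions the promoter shares were 7.70% and 8.98%, and the share was larger for the higher regions on 5 of 20 chromosomes. By distance, regions higher after PL were 19.2% of listed regions from 5000 to 10000 bp past the start and 34.1% of those beyond 200000 bp. In consistent regions these shares were 32.4% and 44.0%. Within 250 bp of a start, the bin with the fewest regions, 21 higher and 58 lower regions were listed (26.6% higher), and 21 and 39 were consistent (35.0% higher). Across the 19 autosomes, 21.8% to 28.4% of listed and 33.1% to 41.9% of consistent regions were higher.

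**Figure D5:**
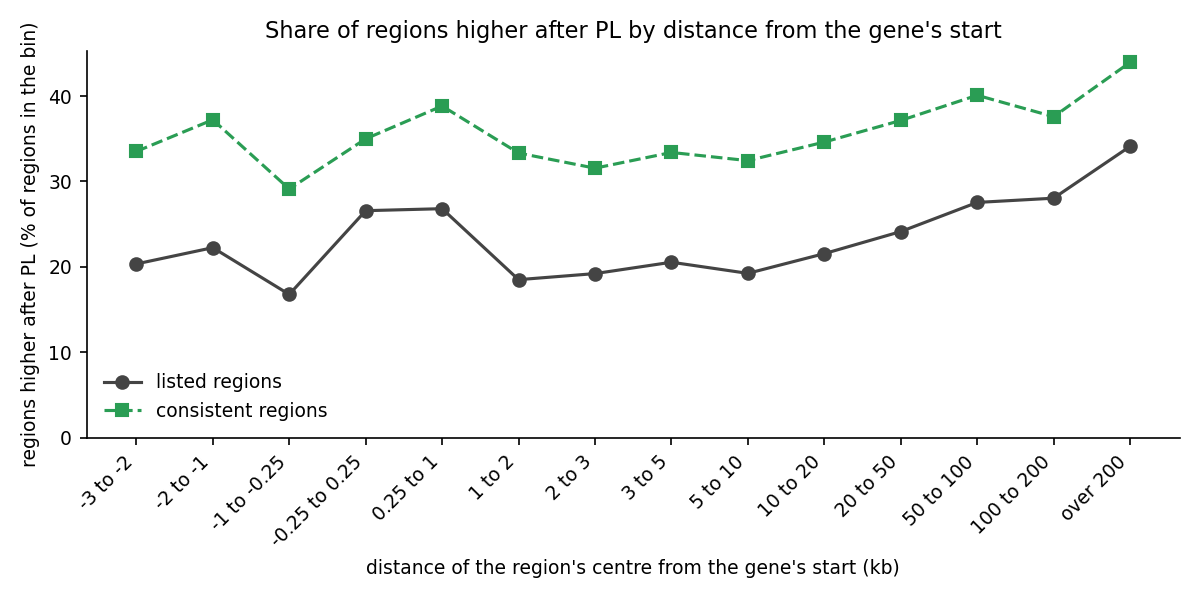
Share of regions higher after PL, in percent of the regions in each bin of distance from the gene's start in kb, for listed regions (circles) and consistent regions (squares). The share rises from 19.2% at 5 to 10 kb to 34.1% beyond 200 kb in listed regions and from 32.4% to 44.0% in consistent ones.

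Regions of one direction rarely stood close together. With gaps of at most 2000 bp, 4 clusters of 3 consistent regions were found, all lower after PL, and none of higher regions. The tightest was intergenic, over 1700 bp at chr3:54333401-54335100, with library means of 9.09, 6.86 and 9.40 after PL and 32.0, 35.1 and 14.8 after DCL. A second lay in Tbc1d15, a GTPase-activating protein for Rab7, over 2440 bp (chr10:114677121-114679560). Its library means were 7.44, 7.88 and 6.54 after PL and 22.6, 21.4 and 17.9 after DCL. The third lay in Abtb2 (chr2:103528981-103531440), with 4.75, 7.88 and 6.54 against 17.2, 15.5 and 19.7. In these gene clusters the 3 DCL libraries were close to each other.

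Some of the same regions were also listed against the contralateral ganglia of the PL animals. A region that a table does not list has no value there, and its absence does not show that the lesion left it at the control level. The comparisons share their lesion libraries with this one and were normalised separately, so values are compared only within a table. Arhgap15 was listed in PL against control, with 25.4, 24.0 and 30.2 normalised reads after PL and 6.31, 6.68 and 4.03 in control. P2rx3 had 15.4, 13.5 and 14.2 after PL and 4.21, 2.67 and 6.34 in control, and Bdnf 29.0, 27.0 and 17.7 and 12.6, 11.4 and 10.4. Slit1 had 22.7, 22.5 and 16.0 and 11.6, 2.67 and 1.15, and the higher region of Tet3 29.9, 21.0 and 26.6 and 8.42, 7.35 and 14.4. In each of these the PL libraries lay above the control libraries, and the regions were not listed in DCL against control. Among the lower regions, Ank3 had 22.7, 13.5 and 23.1 after PL and 54.7, 46.1 and 49.0 in control, and Adarb2 6.35, 9.0 and 1.77 and 19.99, 24.1 and 15.6, so PL lay below control.

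Other regions were listed between DCL and control and not between PL and control. Robo1 near its start had 18.8, 23.9 and 20.4 after DCL and 46.8, 45.9 and 45.4 in control, Slc1a3 12.6, 10.4 and 11.2 and 23.4, 29.1 and 26.2, and Myo10 28.2, 17.9 and 23.0 and 45.8, 46.5 and 50.8. All 3 are higher after PL than after DCL, and their DCL libraries lay below every control library. Pccb, in its promoter, had 0, 7.47 and 5.92 after DCL and 23.4, 18.0 and 23.0 in control. Mgmt had 34.5, 28.4 and 32.9 after DCL and 10.7, 16.7 and 6.41 in control, so there DCL lay above. Klc1 had 62.7, 28.4 and 13.2 after DCL and 15.6, 12.4 and 10.2 in control, with the first-listed DCL library again the highest. The region of Dpysl3 that was not consistent had 201, 22.4 and 19.7 and 16.6, 18.0 and 24.0, where the other DCL libraries lay within the range of control.

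Cell type markers were counted to see whether regions fell at genes of one cell type, although a region at a marker does not measure the share of that cell type. Of 33 sensory neuron markers 6 had a higher and 6 a lower region (18.2% each), with 3 having both. Among all protein-coding genes the shares were 11.6% and 17.6%. P2rx3, the ATP receptor of nociceptors, was higher with 10.5, 9.26 and 9.81 against 0, 0 and 1.95, on 4 DCL reads. Runx3, a factor of proprioceptors, was higher with 13.0, 12.3 and 11.0 against 0, 1.11 and 3.90. Runx1, a factor of nociceptors that blood cells also use, had 4 higher regions and 1 lower one. Trpv1, the capsaicin receptor, was lower with 6.82, 9.26 and 2.45 against 16.4, 14.4 and 19.99. Piezo2, the touch channel, had 2 regions in each direction.

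Most markers of other cells had no consistent region, and the same held for most protein-coding genes. Of these, 11.6% had a higher and 17.6% a lower region, or 23.8% either. Of 24 markers of satellite glia and Schwann cells 20 had none, 1 had a higher and 3 had a lower one. The gene with the higher one, Slc1a3, a glutamate transporter of glia, had 31.0, 29.8 and 34.3 against 14.1, 11.1 and 17.1. Mbp, a myelin protein, had 1.24, 1.03 and 2.45 against 9.36, 11.1 and 9.27 at its region with the smallest adjusted p, on 5 PL reads, and Sox10, the factor of both glial types, 4.96, 6.17 and 2.45 against 9.36, 15.5 and 16.1. Of the immune markers 23 had none and 3 had a lower region, Csf1r with 26.0, 29.8 and 27.0 against 58.5, 49.9 and 47.3, Lyz1 with 5.58, 9.26 and 4.91 against 37.5, 12.2 and 9.27, and Cd8a with 3.10, 9.26 and 9.81 against 32.8, 19.9 and 10.7. None of the immune markers had a higher region, nor had any of 18 markers of vessels and fibroblasts, of which 15 had no consistent region and 3 (Flt1, Col1a2 and Dcn) a lower one. Slc1a3 also had 2 listed lower regions that were not consistent. Immune markers are short genes, with a median of 6.22 kb, and 1.79% of protein-coding genes up to 10 kb had a consistent higher region. The part of length or of cell types in these counts was not tested. Fewer cells of a type and less 5-hmC per cell cannot be told apart in whole ganglia.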

How the data were processed

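Ganglion DNA of 9 enriched and 3 input libraries was sequenced; the tables used here compare the 3 groups of 3 enriched libraries, and the input libraries were not used separately. Per the submitters' processing notes, the tools were Bowtie2 2.2.0, SAMtools 0.1.19 and MACS2 2.1.1 on mm9, with no role given. The region caller is not given in the sources used here, nor are its filters and test. Per the file headers, the authors deposited for each region a cell of 3 normalised counts per group, their mean as a signal, an enrichment ratio, a log2 fold change, and p-values with adjusted p-values. The enrichment ratio was not used, and the log2 ratio printed is that of the group means. The deposited p-values were used to order regions and as thresholds.

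The tables hold only regions that the authors selected, so no model was fitted to all features, and results are counts, library values and ratios, in place of the tests planned for a table of all regions. Whole reads were recovered from the steps of the low values, within 0.1 read. Total depth per library is unknown, and no interval was computed. Means are given with the SD over 3 libraries. A ratio is left out where a group has 3 reads or fewer. Gene names came from the table, and 6716 of 7225 matched a protein-coding gene of RefSeq on GRCm38.p6, from which lengths, promoter windows and microRNAs were taken. No per-sample value column was left unused. Counting code was tested on simulated data.

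Regions named were, in each direction, the 12 genes, 8 promoter regions and 3 intergenic regions with the smallest deposited adjusted p among consistent regions. To these were added the 8 genes with the most regions, the 3 closest clusters, the member of each of 25 gene lists with the smallest adjusted p in each direction, and 25 genes taken whatever their values, not all of which are reported here. Other list members, promoter windows and microRNAs in the text were chosen after their values were seen. The members and lists were chosen with earlier results of these data known. Analyses used Python 3.11.15, NumPy 2.4.6, pandas 2.3.3 and Matplotlib 3.10.9. Alternatives left out each library, used group medians, unscaled reads, other thresholds, a pseudocount or the set-aside regions.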

Additional observations from a re-analysis of the deposited data

How the results depend on the processing

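Directions and the 1.5-fold difference were recounted under each alternative. Leaving out one library at a time kept 5667 to 5688 of the 5688 higher regions and 12030 to 17099 of the 17101 lower regions. The lowest of these, 12030, was without the first-listed DCL library; the next was 17075. Group medians kept 5671 and 14233, with 501 lower regions turned, and unscaled reads kept 5688 and 15733, with 2 turned. With a deposited adjusted p under 0.01 in the authors' deposited table, 5417 higher and 15798 lower regions were left, and keeping the set-aside regions in added 29 and 126. Of the named regions with a finite ratio, 163 moved by less than the spread between libraries without the first-listed DCL library and 1 by more. That spread was computed with the left-out library in it, and is wide where this library stands apart. The count of 163 therefore does not show that the ratios held. At Creb1, chr1:64591801-64592000, a move from -2.73 to -1.18 lay within it. Another 3 turned: Dpysl3 from -1.88 to 0.074, Sema6d at chr2:124419701-124419920 from -1.10 to 0.069, and Tet3 from -1.35 to 0.41. Over all 6 libraries left out in turn, these ratios ranged from -2.34 to 0.074 for Dpysl3, from -1.47 to 0.069 for Sema6d and from -1.80 to 0.41 for Tet3. The cause was not tested. Over all listed regions in place of consistent ones, an alternative chosen after seeing the data, 11.7% of protein-coding genes had a higher and 26.1% a lower region. No paired analysis was possible because the count cells carry no replicate number. The number of reads limits single regions, with a median of 17 reads over the DCL libraries in higher regions and 31 over the PL libraries in lower ones. The value of each library depends on a scaling factor that the authors set, and regions outside their list were not analysed here. Values are from 3 pools per group, and intervals between animals are unknown.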
